A study of Mus musculus with 2 samples.

Results

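The genes of the ubiquitin system were compared between mouse mesoangioblast clones D16 and D351. Members were the genes whose symbol starts with Rnf, Trim plus a digit, Fbx, Ube (without Ube2s), Usp, Cul plus a digit, Klhl, Psm, Herc or Uba, read from probe sets annotated to a single gene. This gave 146 of the 5928 genes named on the array, represented by 201 of 7717 probe sets with 1 gene. A probe set is a group of short probes whose signals the authors had summarised into 1 intensity, and another 6 probe sets that held a member together with a further gene were left out. The symbol rule takes in a few genes that are not enzymes of the pathway by their known role, such as the pseudogene Ube2d-ps, the ESCRT subunit Ubap1 and Psme3ip1, a protein that binds a proteasome activator.

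Both clones came from dorsal aorta of C57BL6 embryos at embryonic day 9.5 and carried no treatment or altered gene in the labels. The aorta was explanted, its cells were cloned by limiting dilution over mitomycin-treated primary embryonic fibroblasts, with later growth on gelatin. Total RNA of each clone was read on 1 array, a C array from Affymetrix's murine U74 set. There was therefore no replicate and no test, each group is a single clone, and precision is limited throughout by the array count. Mesoangioblasts are vessel-associated mesodermal progenitors, and the labels set the study in smooth muscle differentiation.

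Ubiquitin is a small protein that is joined to other proteins in a relay. An E1 enzyme activates it, an E2 enzyme carries it, and an E3 ligase selects the substrate. RING and TRIM proteins are single-chain ligases, while F-box proteins and many Kelch-like proteins are the substrate-binding parts of ligases built on a cullin. Deubiquitinases of the Usp family remove ubiquitin, and the proteasome degrades proteins that carry chains of it. In muscle and vascular cells this system controls, among other things, cell cycle proteins and the turnover of contractile proteins.

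Over 11868 probe sets, D16 had a median intensity of 6.5 and D351 one of 6.2. The median of all values, 6.4, was used as a floor: values at or below it are called dim, and a gene is called measured when it lay above the floor in at least 1 clone. Log2 ratios are D351 minus D16 with dim values raised to the floor, so a ratio with 1 dim value is a lower bound, written as "at least". Each gene is given by its brightest probe set unless stated. Negative control probe sets, made for transcripts of bacteria and yeast, reached 11.2, so values up to about this level are near background. The hybridization controls, RNAs added in fixed amounts, were 1.59-fold brighter on the D16 array (median log2 ratio -0.67), so directions are relative to the bulk of the array. Of the defining mesoangioblast markers fixed for this comparison, 3 of 11 were on the array. The integrin chain Itgb1 read 124 in D16 and 131 in D351, smooth muscle actin Acta2 4.7 and 15.4, and the VEGF receptor Kdr 1.6 and 9.5. The array therefore gives little check of the labelled cell type. Markers of the fibroblast feeder cells moved towards D351: 4 of 14 were on the array, all 4 were past 2-fold, and their summed intensity was 654 in D16 and 2355 in D351, with none of them at 0. Smooth muscle markers lay towards D351 as well: 3 of 9 were on the array, all 3 were past 2-fold (Acta2, Synpo2 and Lmod1), and their summed intensity was 32.0 in D16 and 409 in D351. Of 3 endothelial markers on the array out of 8, Flt1 was past 2-fold towards D351 and Egfl7 towards D16, with sums of 22.4 and 101. The 2 haematopoietic markers on the array out of 7 were under 2-fold, with sums of 141 and 198. The part of other cell types in the ratios below was not tested.

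Most measured genes of the ubiquitin system were under 2-fold. Of the 146 members, 109 were measured and 37 were dim in both clones, with no value of the 37 above 5.9. Of the 109, 11 exceeded 2-fold towards D351 and 5 towards D16, which is 10.1% and 4.59%. Over all 3934 measured genes of the array, 10.3% did so towards D351 and 10.2% towards D16. The share towards D351 is thus near the background of the array. The share towards D16 is below it, but with single arrays this difference has no test, and over probe sets without a mark the shares were 9.23% of 65 members in each direction, against 10.5% of 2524 genes towards D351 and 10.1% towards D16. In RNA from whole cultures, fewer cells with a transcript and less of it per cell cannot be told apart. In either direction 14.7% of the members passed 2-fold, against 20.5% of all measured genes. The median log2 ratio of the members was 0.050, against -0.022 for all measured genes, with 58 members above 0, 50 below and 1 at 0. The quartiles of the members lay at -0.24 and 0.53, and those of all genes at -0.47 and 0.47.

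Ratios of single genes carry a measurement error that replicate arrays would have shown. For the 84 members above the floor in both clones the SD of log2 ratios was 0.66, against 0.85 for the 3061 such genes of the whole array. The brightest pair of probe sets of the same gene, over 409 genes with both pairs of values above the floor, differed with an SD of 0.67 per probe set. For the 15 members with such a pair this SD was 0.85. These pairs include the dimmer probe set of each gene, so they do not give the error of the brightest one. Of the 16 members past 2-fold, 11 rested on 1 measured probe set, 4 were lower bounds, and 6 had no measured probe set free of a mark. A mark (a letter before the end of the identifier) denotes relaxed probe selection or sequence shared with other transcripts.

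**Figure D1:**
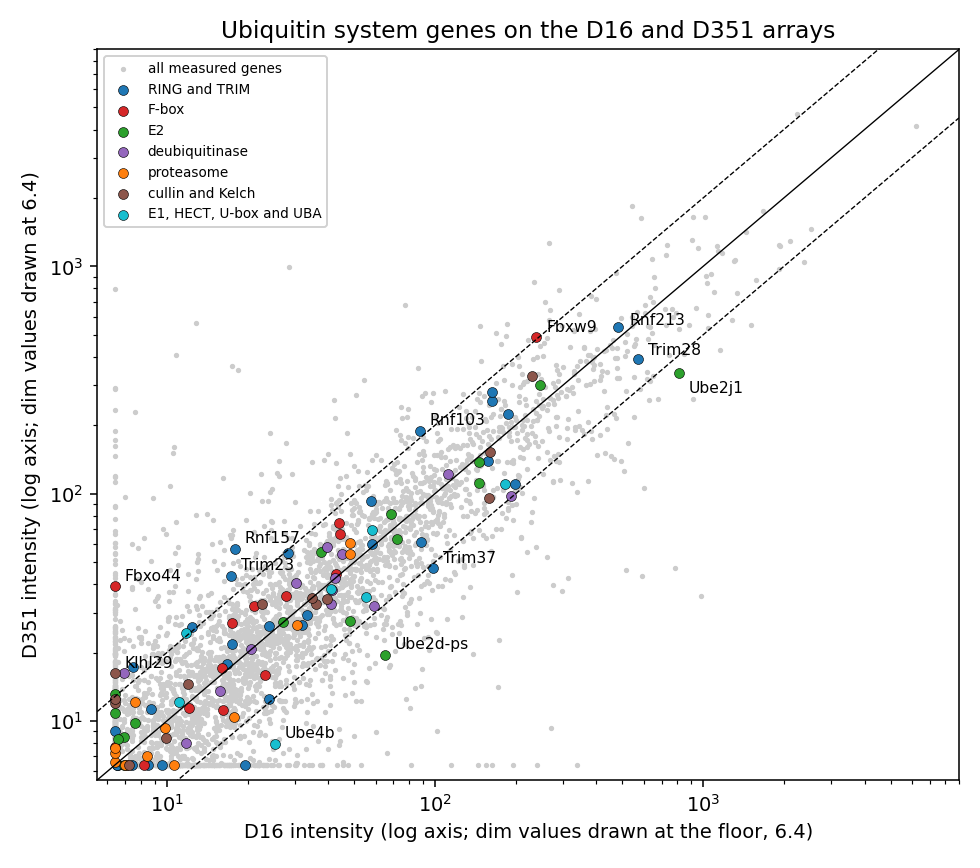
Intensity of each measured gene in D16 (x axis) and D351 (y axis), both on log axes with dim values drawn at 6.4. Grey points are all 3934 measured genes, coloured points the 109 measured members by subfamily, the solid line marks equal values and the dashed lines 2-fold. Most members lie between the dashed lines, with Fbxo44 (a lower bound) and Rnf157 farthest towards D351 at this floor and Ube2d-ps and Ube4b farthest towards D16.

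A stricter floor lowered the counts. Raising the floor to the 75th percentile, 20.7, left 4 members past 2-fold towards D351 (Rnf157, Trim23, Rnf103 and Fbxw9), and 3 towards D16 (Ube2d-ps, Ube2j1 and Trim37). These are 6.06% and 4.55% of the 66 members measured at that floor, against 7.91% and 8.33% of 2340 genes. Rnf157 and Fbxw9 each had another probe set past 2-fold in the opposite direction, and Ube2d-ps is a non-coding gene. That left Trim23 and Rnf103 towards D351 and Ube2j1 and Trim37 towards D16. The sequence upstream of their start sites is shown to set the promoters of members with opposite direction side by side. Each is the 250 bases before the annotated start, from RefSeq on build GRCm38.p6, 5′ to 3′ on the strand of the gene. All lie on the plus strand, Ube2j1 at chr4:33031130-33031379, Trim37 at chr11:87126825-87127074, Rnf103 at chr6:71493627-71493876 and Trim23 at chr13:104178589-104178838. Capitals mark CCAAT and GGGCGG, the letters of the CCAAT box and the GC box, on either strand.
Ube2j1: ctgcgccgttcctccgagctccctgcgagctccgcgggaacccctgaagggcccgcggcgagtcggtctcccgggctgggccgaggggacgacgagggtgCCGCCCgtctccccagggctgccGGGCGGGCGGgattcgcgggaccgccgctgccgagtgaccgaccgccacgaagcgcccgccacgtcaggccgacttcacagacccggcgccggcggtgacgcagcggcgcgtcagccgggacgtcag
Trim37: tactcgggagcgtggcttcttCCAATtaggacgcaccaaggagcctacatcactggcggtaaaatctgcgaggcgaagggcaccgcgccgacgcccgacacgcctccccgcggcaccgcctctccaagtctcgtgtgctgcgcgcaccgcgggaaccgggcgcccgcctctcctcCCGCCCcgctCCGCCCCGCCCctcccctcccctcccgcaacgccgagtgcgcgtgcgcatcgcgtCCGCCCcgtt
Rnf103: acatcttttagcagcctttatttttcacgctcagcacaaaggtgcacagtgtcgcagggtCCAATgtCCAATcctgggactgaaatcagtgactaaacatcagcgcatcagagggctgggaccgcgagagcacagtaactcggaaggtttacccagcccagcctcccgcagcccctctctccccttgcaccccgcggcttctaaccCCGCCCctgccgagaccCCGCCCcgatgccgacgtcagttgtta
Trim23: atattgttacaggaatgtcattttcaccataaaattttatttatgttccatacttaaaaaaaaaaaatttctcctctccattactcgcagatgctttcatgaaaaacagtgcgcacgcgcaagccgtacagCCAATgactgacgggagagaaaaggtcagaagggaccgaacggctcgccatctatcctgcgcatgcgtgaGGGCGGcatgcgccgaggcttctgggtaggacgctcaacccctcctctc

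GC box letters were present in all 4 windows, with 3 occurrences in Ube2j1, 4 in Trim37, 2 in Rnf103 and 1 in Trim23; the last 2 of the 3 in Ube2j1 overlap, as do 2 of the 4 in Trim37. CCAAT was present in Trim37, Rnf103 and Trim23. The E-box CACGTG, the CRE letters TGACGTCA, TTTGAA (found in many cell cycle promoters) and TATAAA were searched on both strands too and were in none of the 4. RefSeq promoter windows were found for 122 of the 146 members, 155 windows in all. GGGCGG was in 52.9% of these windows against 32.7% of all 32851 windows of the same length. The latter cover 27025 RefSeq genes and were not limited to genes on this array, so they are not a matched background. GGGCGG was in 10 of 14 windows of the members past 2-fold towards D351 and in 4 of 5 towards D16, so both directions held it. CCAAT was in 35.5% of member windows and 33.8% of all, CACGTG in 5.81% and 6.02%, TTTGAA in 12.3% and 16%, TATAAA in 4.52% and 12.4%, and TGACGTCA in 0.645% and 1.55%. These are matches of letters and not known binding sites.

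**Figure D2:**
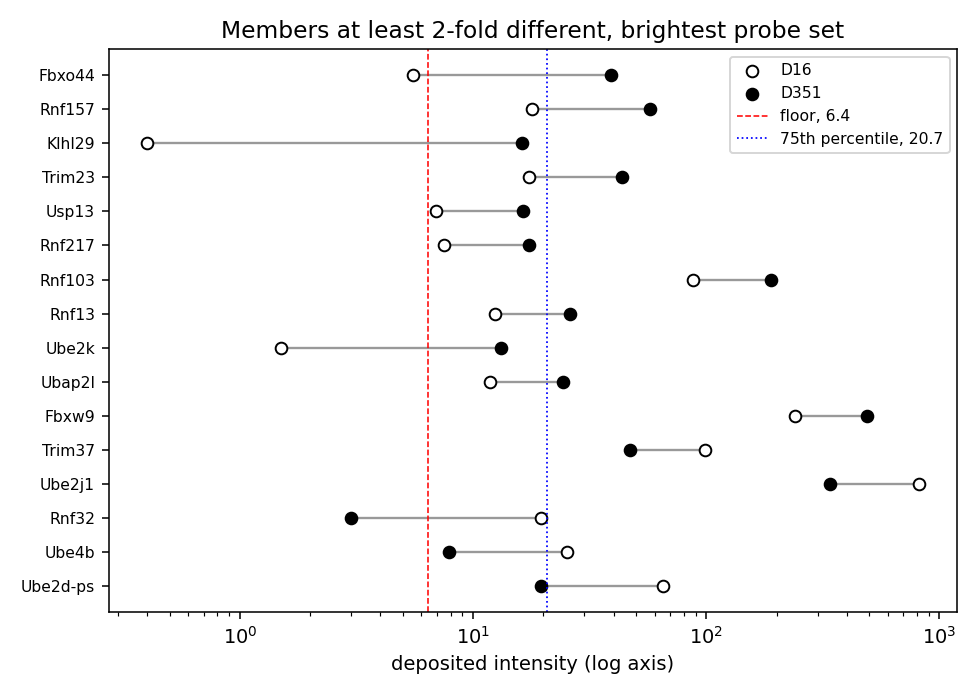
Deposited intensity (log axis) of the 16 members at least 2-fold different, by brightest probe set, in D16 (open) and D351 (filled). The dashed line is the floor of 6.4 and the dotted line the 75th percentile of 20.7; only Rnf103, Fbxw9, Trim37 and Ube2j1 have both values above the dotted line.

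Among the genes at the start of the relay, the E1 enzyme Uba6, which activates ubiquitin and the related protein FAT10, was nearly equal, at 40.8 in D16 and 38.1 in D351 (log2 ratio -0.10). The other measured genes with a symbol starting with Uba carry ubiquitin-binding domains and are not E1 enzymes. Ubap1, of the ESCRT machinery that sorts ubiquitinated membrane proteins, read 182 in D16 and 111 in D351, a log2 ratio of -0.72. The membrane protein Ubac2 lay the same way, at 55.3 and 35.0 (-0.66); Uba6 and Ubac2 were named after their values were seen. Ubap2l, a protein of stress granules, was the exception, with 11.8 in D16 against 24.3 in D351, a ratio of 2.06-fold. This became 1.17-fold with the floor at 20.7, so this difference rests on a D16 value just above the negative controls. Uba6, Ubap1, Ubac2 and Ubap2l were each measured only by a probe set with a mark. Their other probe sets were dim in both clones.

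Of 20 E2 genes, 16 were measured, 1 passed 2-fold towards D351 and 2 towards D16, and the median log2 ratio was 0.12. These are 6.25% and 12.5% of the 16, against 10.3% and 10.2% of all measured genes. Ube2j1, an E2 anchored in the membrane of the endoplasmic reticulum (ER) that serves the degradation of misfolded ER proteins, had 815 in D16 against 338 in D351 and was thus 2.41-fold higher in D16. It was measured only by a probe set with a mark, and its second probe set was dim in both clones, at 2.4 and 6.1. Ube2d-ps, a pseudogene of the Ube2d family that RefSeq lists as a long non-coding RNA, read 65.1 and 19.5, 3.34-fold higher in D16. Whether its probes also read related Ube2d transcripts was not tested. Ube2d1, an E2 that works with many RING ligases, read 246 in D16 and 300 in D351, a log2 ratio of 0.29.

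Ube2k, an E2 that builds degradation chains, was dim in D16 (1.5) and at 13.2 in D351, at least 2.06-fold higher in D351. Its other probe set read 8.3 and 9.4, under 2-fold, and both lay near background. Ube2n, which makes the non-degradative chains of signalling, was the member at exactly 0, with 27.2 in both clones. Other E2 genes were under 2-fold: Ube2r2 stood at 48.3 in D16 and 27.4 in D351, Ube2g2 at 146 and 111, and Ube2e2 at 145 and 138 (named after their values were seen). Among the 4 E2 genes dim in both clones was Ube2cbp, which despite its symbol is known as a ligase that binds an E2.

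RING and TRIM genes were the largest subfamily, with 46 genes, 33 measured, 5 past 2-fold towards D351, 2 towards D16 and a median log2 ratio of 0.092. These counts are 15.2% and 6.06% of the 33, against 10.3% and 10.2% of all measured genes. The 19 measured Rnf genes had a median of 0.27 and the 14 measured Trim genes one of -0.063. Rnf103, a ligase of the ER membrane, had 87.9 in D16 against 189 in D351, a ratio of 2.14-fold, by a single probe set with a mark. Rnf13, a ligase of endosome and lysosome membranes, was 2.09-fold higher in D351 at 12.4 and 25.9, or 1.25-fold with the floor at 20.7. It was measured only by a probe set with a mark, its D16 value was just above the negative controls, and its other probe set was dim in both clones. Rnf217, of the RING-between-RING ligases, was 2.31-fold higher, but at 7.5 and 17.3 both values were below 20.7.

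Trim23, which joins a RING domain to a GTPase domain of the ARF family, had 17.4 in D16 against 43.5 in D351, a ratio of 2.50-fold, or 2.10-fold with the floor at 20.7. Its other probe set was dim in both clones. Trim37, a ligase that limits the assembly of centrioles outside centrosomes, lay the other way. Its brightest probe set gave 98.4 in D16 against 46.9 in D351, so that it was 2.10-fold higher in D16. Its second probe set, built on another sequence accession and also without a mark, read 84.2 and 39.5, 2.13-fold. Trim37 was the only member with 2 probe sets past 2-fold in the same direction where both values were above the floor.

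Rnf157 and Rnf32 gave contradictory readings. Rnf157, a ligase studied mainly in neurons, was 3.20-fold higher in D351 by its brightest probe set (17.9 and 57.3). Another gave 26.3 in D16 against 10.2 in D351, a ratio of 2.58-fold the opposite way, and the last 6.6 and 10.6. Rnf32, a gene expressed mainly in testis, gave 19.5 in D16 but a dim value in D351, at least 3.05-fold higher in D16. Another probe set was dim in D16 and at 16 in D351, and the last gave 12.5 in D16 and was dim in D351. No direction can be given for either gene.

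Rnf41, a ligase that lowers the receptor ErbB3, had 3 measured probe sets, all without a mark and all towards D351 (named after its values were seen). They read 163 in D16 and 257 in D351, 117 and 195, and 77.4 and 108, which is 1.57-fold, 1.67-fold and 1.40-fold. Rnf214, a RING protein of little-known function, read 163 and 279 (1.71-fold) and, by a dimmer probe set, 9.6 and 28.9 (3.01-fold). Rnf138, a ligase that takes part in DNA break repair, lay towards D16 by both probe sets, with 199 in D16 and 111 in D351, and 28.5 and 11.1, which is 1.80-fold and 2.57-fold. For these 3 genes the brightest probe set was under 2-fold, and all measured probe sets pointed the same way.

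The 2 brightest members of the subfamily were under 2-fold. Rnf213, a very large ligase with an ATPase motor and a known risk gene for a disease of brain arteries, read 480 in D16 and 542 in D351 (log2 ratio 0.18). Trim28, the corepressor that zinc finger repressors recruit to silence repeated DNA, had 574 and 392 by its brightest probe set (-0.55), but 18.7 and 22.7 by another. Trim14, a TRIM protein of antiviral signalling, read 31.8 and 26.4, and by its other probe set 12.9 in D16 and dim in D351, at least 2.02-fold higher in D16.

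F-box genes leaned to D351 in number, a lean that has no test with 1 array per clone. Of 20, 14 were measured, 10 of them above 0 and 4 below, with a median log2 ratio of 0.31, the highest of the 7 subfamilies. All genes of the array had 48.7% above 0. Fbxo44 and Fbxw9 passed 2-fold towards D351 and none did towards D16. That is 14.3% and 0%, against 10.3% and 10.2% of all measured genes. Fbxo44, of the F-box proteins with a sugar-binding type of domain, was dim in D16 (5.5) and at 39.1 in D351, a ratio of at least 6.11-fold. This bound follows the floor, and it was 1.89-fold with the floor at 20.7. Its relative Fbxo17 read 43.7 in D16 and 74.4 in D351, a log2 ratio of 0.77. Of the 6 measured Fbxl genes, whose products carry leucine-rich repeats, none passed 2-fold, where 20.5% of all measured genes did. Their median was 0.47.

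Fbxw9, an F-box protein with WD repeats, had 239 in D16 against 487 in D351 for its brightest probe set, a ratio of 2.04-fold. Another read 75.1 and 33.2, 2.26-fold the opposite way, and the last 14.6 and 15.3. All 3 carry a mark, and the mean log2 ratio of the 3 was -0.028, so no direction can be given. The Fbxw genes known for expression in oocytes were at or near background: Fbxw15 and Fbxw21 were dim in both clones, and Fbxw16 reached 8.2 in D16 (named after their values were seen).

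Of 17 cullin and Kelch genes, 13 were measured, with a median log2 ratio of -0.0083, and 1 passed 2-fold, towards D351. In either direction that is 7.69%, against 20.5% of all measured genes. Cul5, the scaffold of ligases that use SOCS-box adaptors, read 229 in D16 and 330 in D351 (0.53). Its other probe set, also without a mark, was dim in both clones, at 1.3 and 0.1. Cul2, the scaffold of the ligase that holds the VHL protein, read 159 and 96.1, a log2 ratio of -0.72, and was named after its values were seen. Its second probe set was made from the same accession, so it is not an independent reading. Cul9, a cullin that binds p53, read 160 and 153 (-0.067), while a second probe set from the same accession read 15.2 and 30.8, 2.03-fold higher in D351.

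Klhl29 was dim in D16 (0.4) and at 16.2 in D351, at least 2.53-fold higher in D351, and both values were below 20.7. Klhl20 and Klhl23 showed a like pattern below 2-fold, dim in D16 and at 12 and 12.5 in D351 (named after their values were seen). All 3 lay not far above the highest negative control. Klhl29 and Klhl23 were measured only by a probe set with a mark, and the other probe set of Klhl23 was dim in both clones.

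The ligases of the HECT and U-box classes were few. Herc2, a very large HECT ligase of the DNA damage response, read 58.2 in D16 and 69.3 in D351 (0.25). Ube4b, a U-box ligase that lengthens existing ubiquitin chains, read 25.3 and 7.9, 3.20-fold higher in D16. This was 1.22-fold with the floor at 20.7, so its size rests on a D351 value within the range of the negative controls. Ube3a, named after its values were seen, was dim in both clones.

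**Figure D3:**
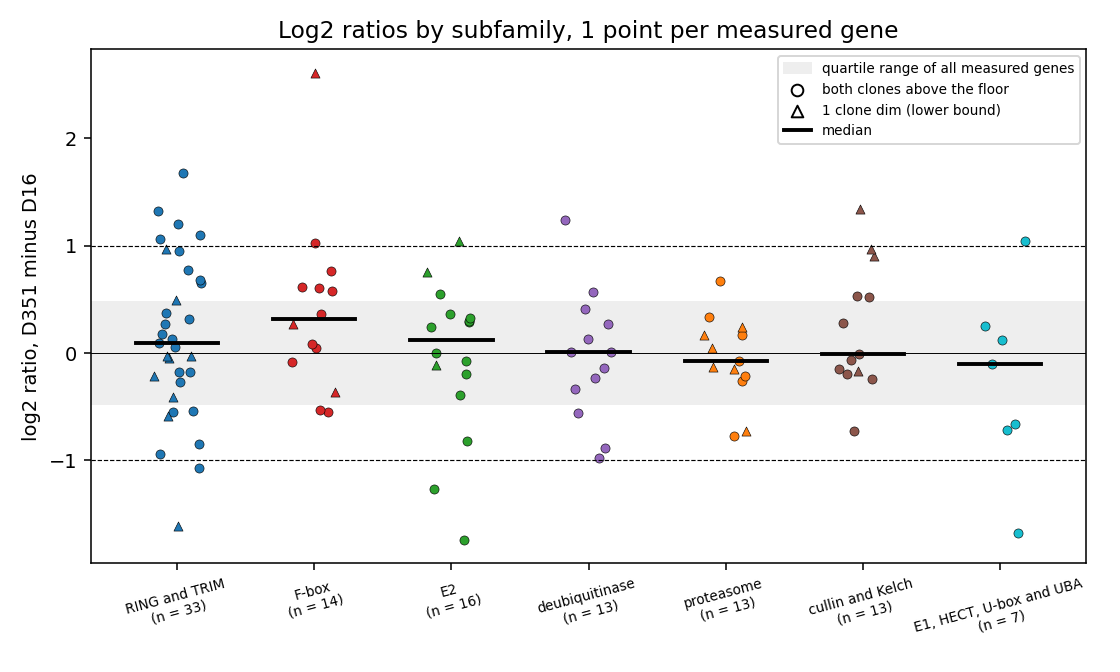
Log2 ratio of D351 minus D16 (y axis) for each measured member by subfamily (x axis), with circles for genes above the floor in both clones, triangles for lower bounds and a bar at the median. The grey band runs between the quartiles of all measured genes, from -0.47 to 0.47, and dashed lines mark 2-fold; every subfamily median lies inside the band and no proteasome gene reaches a dashed line.

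Deubiquitinases had a median ratio near 0, with single genes to either side. Of 19 Usp genes, 13 were measured, all above the floor in both clones, with a median log2 ratio of 0.010 and an SD of 0.60. In either direction 1 gene passed 2-fold, or 7.69%, against 20.5% of all measured genes. That gene was Usp13, which trims chains on proteins of autophagy and ER quality control, with 6.9 in D16 against 16.3 in D351, a ratio of 2.36-fold between values that are both below 20.7. Usp54 read 192 and 97.3, 1.97-fold higher in D16 and just short of 2-fold. Its other probe set, from a different accession, read 13.2 and was dim in D351, at least 2.06-fold higher in D16. Usp31, named after its values were seen, lay the same way at 59.3 and 32.2 (-0.88).

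Usp46, a regulator of receptor turnover, read 111 in D16 and 122 in D351 (0.13). Usp21, which acts on histones and signalling proteins, read 44.9 and 54.3 by its brightest probe set and 7.8 and 34 by the other, 4.36-fold higher in D351. The readings of Usp21 thus share a direction but not a size. Usp30, the deubiquitinase of the mitochondrial surface, read 42.3 and 42.6 by one probe set and 42.6 and 26.4 by another (named after its values were seen).

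No proteasome gene was called past 2-fold at the floor used here. Of 15, 13 were measured, 6 above 0 and 7 below, with a median log2 ratio of -0.076 and a range of -0.78 to 0.67. None of the 13 passed 2-fold, where 20.5% of all measured genes did. A gene whose brighter value was under 2 times the floor of 6.4 could not pass. This held for Psmc4, Psmd5, Psma8, Psmc5, Psma4, Psmb8, Psmd10, Psmf1 and Psmg3, whose brighter values ran from 6.6 to 12.1. Only Psma3, Psmc3, Psmd4 and Psme4 could have passed, so the comparison with 20.5% does not show that proteasome genes were stable. Psmc3, an ATPase of the proteasome cap, read 48.3 in D16 and 60.8 in D351 (0.33). Psma3, a subunit of the outer ring of the core, read 48.1 and 54.1 (0.17). The second probe sets of both genes also lay towards D351, at 0.79 and 0.47.

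Towards D16 lay Psmc4, another ATPase of the cap, at 10.6 in D16 and dim in D351, and the activator Psme4, at 17.8 and 10.4. Psmg3, an assembly chaperone of the core, lay towards D351 at 7.6 and 12.1. The catalytic subunit Psmb8 of the interferon-induced immunoproteasome was dim in D16 and at 6.6 in D351, just above the floor. These 4 genes were named after their values were seen. Of the 13, 6 were dim in 1 clone, so their ratios are lower bounds and the true ratio may be larger. With the floor at the 25th percentile, 1 passed 2-fold towards D351 and 3 towards D16. Over all genes measured at that floor, 14.6% and 15.6% did. With scaling to the hybridization controls 2 proteasome genes passed it towards D351, against 27.5% of all genes measured that way.

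Members with several measured probe sets often had mixed readings. Of 24 such members, 7 had every measured probe set above 0, 6 had every one below 0 and 11 were mixed. The brightest pair lay in the same direction for 13 of the 24 (54.2%), against 61.9% of 648 genes over the whole array, a difference without a test. In 11 of the 24 at least 1 probe set passed 2-fold, a count that was not made over all genes. In 3 (Rnf157, Rnf32 and Fbxw9) probe sets passed it in both directions, in each case by the brightest pair. Over the whole array the brightest pair did so in 8 of 648 genes, and this difference has no test either.

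**Figure D4:**
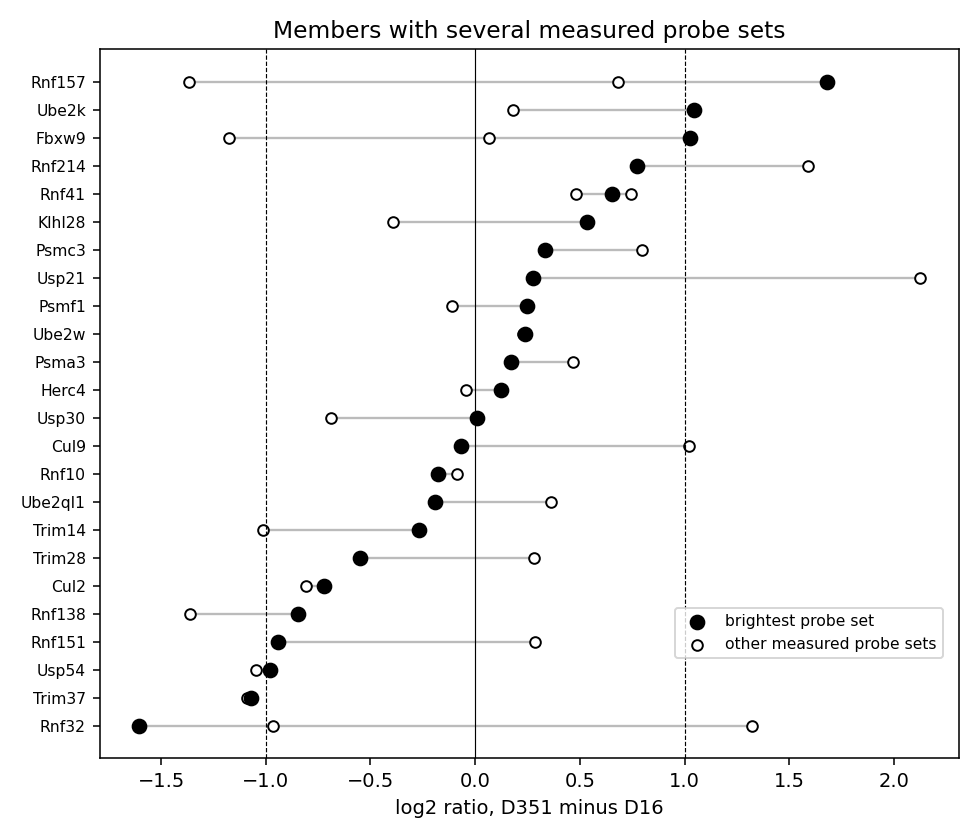
Log2 ratio of D351 minus D16 (x axis) for every measured probe set of the 24 members with more than 1, ordered by the brightest probe set (filled); open points are the others and dashed lines mark 2-fold. Trim37, Usp54, Cul2 and Rnf41 have close readings, while Rnf157, Fbxw9 and Rnf32 span both sides.

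Groups by known role, put together after the values were seen, cut across the subfamilies. Of 9 members of ER membrane protein degradation, 7 were measured, 1 was past 2-fold in each direction (Rnf103 towards D351 and Ube2j1 towards D16) and the median log2 ratio was 0.27. Each is 14.3% of the 7, against 10.3% and 10.2% of all measured genes. The ligase Rnf185 of this group read 187 in D16 and 225 in D351. Members known mainly from striated muscle (Klhl30, Klhl31, Klhl41 and Trim54) were all 4 dim in both clones, with no value above 4.0. They were read by 4 probe sets in all, and 37 of the 146 members were dim, so this does not show absence. Of 12 members known mainly from germ cells, 7 were dim in both clones. The 5 measured had a median of -0.36, and 3 of the 5 ratios were lower bounds. Of the 5, 1 passed 2-fold (20%, against 20.5% of all measured genes), Rnf32, whose probe sets contradict each other. Among the other measured ones, Rnf151 read 24 and 12.5 by its brightest probe set. Its other probe set lay the opposite way, dim in D16 and at 7.8 in D351. Usp26 read 15.8 and 13.5.

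A list of 342 other gene symbols of ubiquitin and related modifiers, older names included, had 104 on the array, of which 77 were measured. Of the 77, 4 passed 2-fold towards D351 and 9 towards D16, or 5.19% and 11.7%, against 10.3% and 10.2% of all measured genes, and the median log2 ratio was -0.0062. Towards D351, Anapc11, the RING subunit of the anaphase-promoting complex, was dim in D16 and at 23.1 in D351, at least 3.61-fold higher. Peli2, a ligase of Toll-like receptor signalling, stood at 6.6 and 21.0. Rad18, the ligase of lesion bypass at stalled replication forks, was 2.08-fold higher in D351 (52.0 and 108), and Spop, an adaptor of cullin ligases, 2.02-fold (180 and 364).

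Towards D16 on this list, Mkrn1, a RING ligase that binds RNA, read 36.6 and 8.2, 4.46-fold higher in D16, while its other probe set read 7.1 and 11.2. Uhrf1, the ligase that maintains DNA methylation after replication, was 2.67-fold higher in D16 (33.4 and 12.5). Hectd3, a HECT ligase, was also 2.67-fold higher in D16, at 69.2 and 25.9. Birc6, a large enzyme that blocks cell death, was 2.65-fold higher at 34.7 and 13.1. With the floor at 20.7, 2 genes of the list passed 2-fold towards D351 (Rad18 and Spop) and 5 towards D16 (Hectd3 and, named after their values were seen, Otub2, Skp2, Ubr3 and Uchl3). Scaled to the hybridization controls, 24 of 79 passed 2-fold towards D351 and 1 towards D16, Mkrn1, against 27.5% and 3.67% of all 3956 genes measured that way.

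Scaling both arrays to the hybridization controls moved the median of all measured genes to 0.58 and that of the members to 0.71. Of the members past 2-fold, the share higher in D351 went from 68.8% to 94.3%, with 33 higher in D351 and 2 in D16, and for all measured genes it went from 50.1% to 88.2%. The 2 were Ube2d-ps and Ube4b, while Ube2j1 and Trim37 kept their direction and no longer passed 2-fold, at -0.60 and -0.40. Rnf32 turned to D351 because another of its probe sets became the brightest.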

How the data were processed

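The authors deposited 1 linear intensity per probe set and array. How they were summarised and scaled is not given in the sources used here; the deposited values were taken as they are. The 66 control probe sets of the 11934 were set aside. Gene names came from the platform annotation, and all 146 members matched RefSeq genes of GRCm38.p6 by identifier, with 0 symbols changed. Promoter sequences came from the RefSeq table of that build. A gene was given by the probe set with the highest mean floored log2 value.

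With 1 array per clone, differences were described by a 2-fold rule and no test was run. The members and lists were chosen with earlier results of these data known. Named genes were the members past 2-fold, the 2 brightest of each of 7 subfamilies, those with several measured probe sets of which 1 passed 2-fold, and up to 4 genes in each direction of the list of other ubiquitin genes. All other genes were named after their values were seen. The groups by role were also made then. The 9 alternatives were quantile normalization, lowess centring (span 0.3), scaling to the 9 hybridization control probe sets, a lower floor (25th percentile) and a higher one (75th), a pseudocount of 6.4, a 3-fold rule, probe sets without a mark, and averaging all measured probe sets of a gene. The procedure was run on simulated arrays with changes larger than 2-fold planted in bright probe sets only. That run does not cover calls near 2-fold or near the floor. Computations ran in Python 3.11.15 (numpy 2.4.6, pandas 2.3.3, statsmodels 0.14.6, matplotlib 3.10.9).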

Additional observations from a re-analysis of the deposited data

How the results depend on the processing

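Counts below are members at least 2-fold higher in D351, then in D16, and the number of measured members changes with the setting. Scaled to the hybridization controls the shares were 31.4% and 1.9% of 105 members, against 27.5% and 3.67% of all genes. With the floor at the 25th percentile they were 14.3% and 12% of 133 members, against 14.6% and 15.6% of all genes. By the 3-fold rule they were 1.83% and 2.75% of 109 members, against 4.58% and 3.56%. Under quantile normalization and lowess centring the counts over all members and over each subfamily stayed within 1.5 times of those reported. Scaled to the hybridization controls they were 33 and 2 over all members, 12 and 0 for RING and TRIM genes, 3 and 1 for E2 genes, and 7 for F-box, 3 for deubiquitinase, 2 for proteasome and 5 for cullin and Kelch genes towards D351. With the floor at the 25th percentile (1.8) they were 19 and 16 over all members, 8 and 5 for RING and TRIM, 1 and 3 for proteasome and 4 and 2 for cullin and Kelch genes, with 1 F-box and 4 E2 genes towards D16 and 2 deubiquitinases towards D351. With the floor at the 75th percentile they were 4 and 3 over all members, 3 and 1 for RING and TRIM, 1 F-box gene towards D351, and 0 towards D351 for E2, deubiquitinase and cullin and Kelch genes, and 0 and 0 for the E1, HECT, U-box and UBA group. With a pseudocount, 1 RING or TRIM gene and 1 proteasome gene lay towards D16, 3 cullin and Kelch genes towards D351, and 0 E2, deubiquitinase or E1-group genes towards D351. By the 3-fold rule 2 and 3 members remained past it, 1 and 1 of RING and TRIM, 1 F-box gene towards D351, 0 and 1 of E2, and 0 towards D351 of the deubiquitinase, cullin and Kelch and E1 groups. Over probe sets without a mark there were 6 and 6 members, with 3 RING and TRIM and 1 F-box gene towards D351, 1 E2 gene and 1 deubiquitinase towards D16, and 0 cullin and Kelch or E1-group genes towards D351. With the mean over probe sets there were 1 F-box, 0 E2 and 2 deubiquitinase genes towards D351 and 1 deubiquitinase towards D16. Rnf32 and Fbxw9 changed direction. Rnf32 went to 1.66 on the log2 scale when scaled to the controls, 1.46 with the lower floor and 0.88 with a pseudocount, each by another probe set, and Fbxw9 to -0.028 with the mean over its probe sets. Of 40 named genes, all 40 stayed on their side of 2-fold under quantile normalization and all 40 under lowess centring. Other settings moved more of them, besides those that changed direction. By the 3-fold rule 16 no longer passed, with the higher floor 9 of those still measured, with a pseudocount 8 and with the lower floor 1. Scaled to the controls 5 no longer passed and 4 newly did. With the mean over probe sets 4 no longer passed and 4 newly did. Over probe sets without a mark 2 newly passed. No paired analysis was possible because each clone has 1 array. Values near 6.4 lie within the range of the negative controls, so the floor sets the size of those ratios.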
